A study of Mus musculus with 10 samples.

Results

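The tissue inhibitors of metalloproteinases (TIMPs) and the matrix metalloproteinases (MMPs) named for this account are 10 genes, Timp1, Timp2, Timp3, Timp4, Mmp2, Mmp8, Mmp9, Mmp14, Mmp19 and Mmp25. They were chosen by name, with earlier results of these data known. They were matched to the gene identifiers of the expression table, which held all 10 among its 28185 genes. Every member also reached the mean level set for testing, as did 11549 genes in all.

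MMPs are zinc-dependent enzymes that cut collagen, gelatin and other proteins of the extracellular matrix, and TIMPs are small secreted proteins that bind them and block the active site. Neutrophils make the collagenase Mmp8, the gelatinase Mmp9 and the membrane-anchored Mmp25 during maturation in the bone marrow and store the proteins in granules, so that protein can be released from cells that no longer hold much of the transcript. In the heart after myocardial infarction (MI) the same families are also made by fibroblasts, macrophages, vascular cells and cardiomyocytes, and they take part in the breakdown and rebuilding of the infarcted wall.

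RNA was sequenced from cells selected with magnetic beads against Ly6G, a surface protein of mouse neutrophils, from C57Bl/6J mice at day 3 of an infarction made by tying the left coronary artery, which the methods describe as males of 12 to 16 weeks. Cells came from the digested left ventricle below the ligature (MI, n = 3, and MI + MSC, n = 3) or from blood (Blood, n = 2, and Blood + MSC, n = 2). The MSC groups had received syngeneic bone marrow mesenchymal stromal cells (MSC), 1000000 cells at each of 3 sites under the skin within an hour of the ligation, and the others were labelled as without MSC treatment. Per the methods all 4 groups share the ligation, and no animal without it was analysed here. The batch named in the labels is the group itself, so batch and group cannot be told apart, and the labels do not say which libraries came from which mouse, so p-values measure the spread between libraries.

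Values are the deposited normalized counts, that is, reads per gene divided by a scaling factor of each library. The 10 libraries held 148594 to 8602711 reads on genes, and MI 13 and Blood 21 were the shallowest, with 1 read worth 8.40 and 7.07 normalized counts against 0.168 to 2.30 in the others. The value of 3 reads, taken as the smallest amount that could be detected, thus comes to 25.2 for MI 13 and 21.2 for Blood 21. Ly6g itself lay at 16.8 to 26.9 in MI, 4.75 to 13.8 in MI + MSC, 198 to 645 in Blood and 41.2 to 57.0 in Blood + MSC, and the summed level of 10 neutrophil markers was 3219 to 9307, 3895 to 18326, 46112 to 46271 and 16867 to 25285 in the same order. The cardiac libraries also held transcripts of 10 cardiomyocyte markers at a summed level of 3130 to 23773, against 51.7 to 98.9 in blood, and Blood 21 held 9 platelet markers at 29978 against 1214 in Blood 22. In bulk RNA of this kind, fewer cells of a type and less RNA per cell cannot be told apart.

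**Figure D1:**
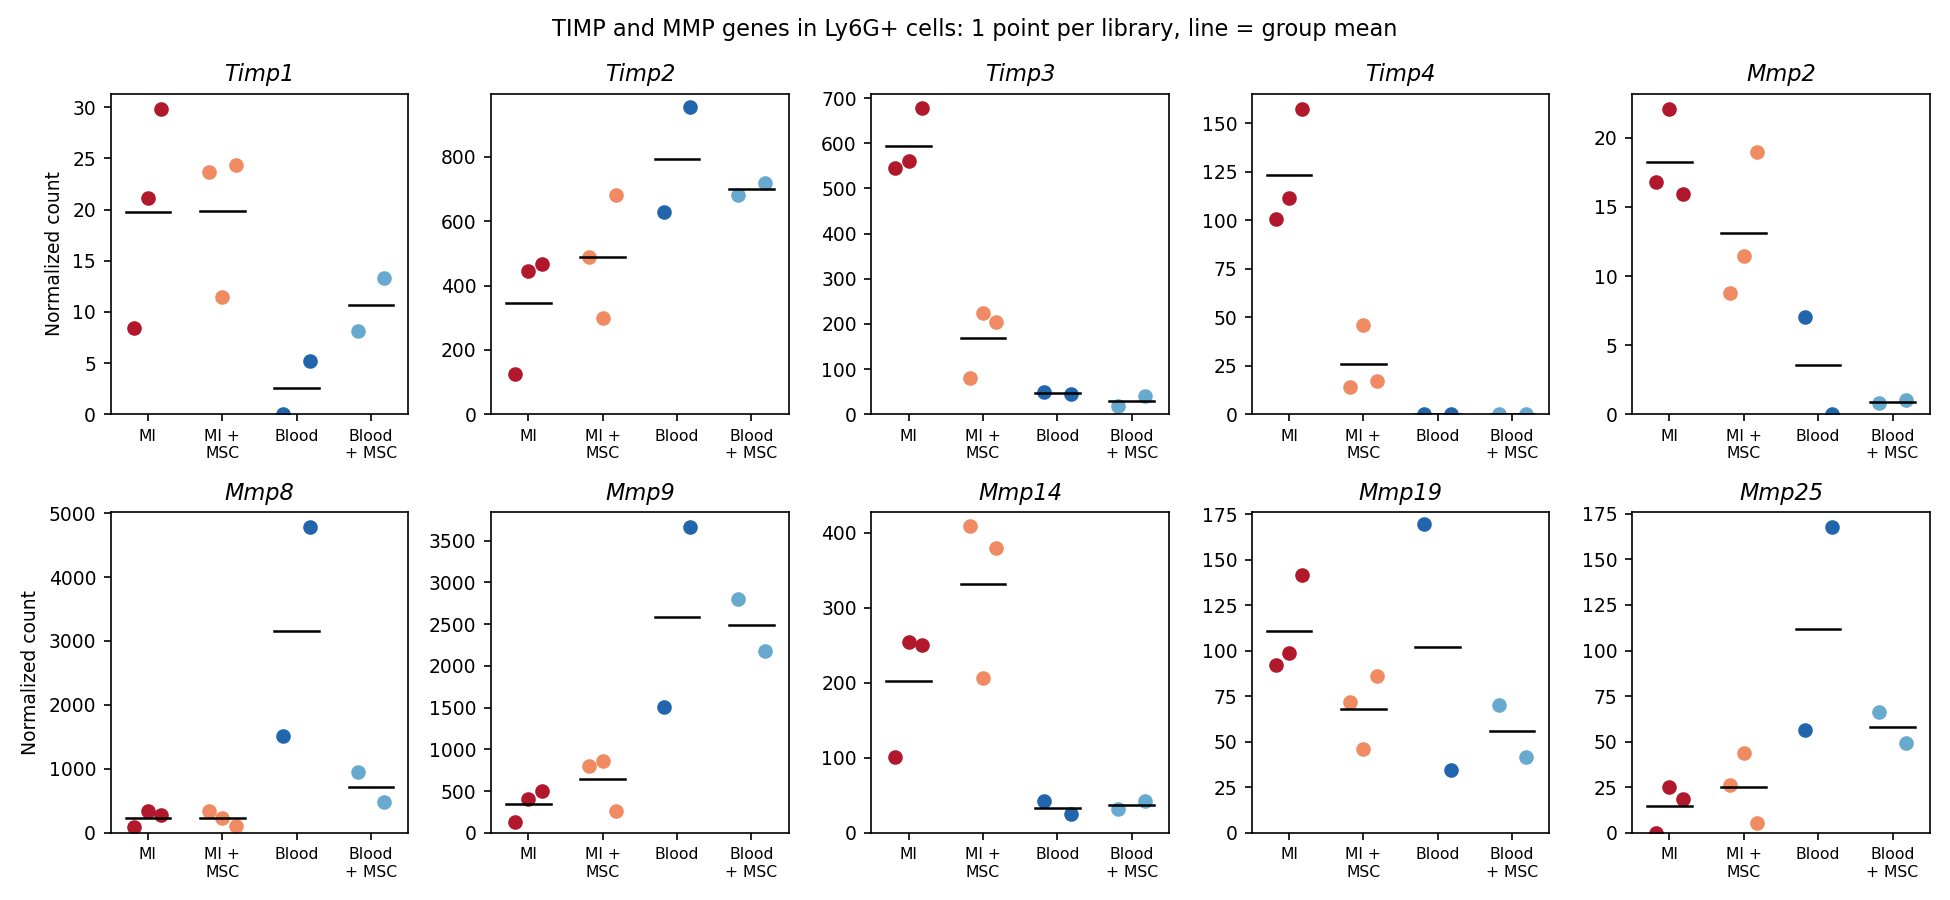
Normalized counts of the 10 TIMP and MMP genes, with 1 panel per gene, the 4 groups on the horizontal axis, 1 point per library and a line at the group mean. Each vertical axis is linear and starts at 0. Timp3 and Timp4 were highest in the 3 MI libraries, whereas Mmp8, Mmp9 and Mmp25 were highest in blood.

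The first comparison was between cells from the infarcted ventricle and cells from blood of animals without MSC. Timp3, Timp4, Timp1, Mmp14 and Mmp2 were higher in MI, and the neutrophil proteinases Mmp8, Mmp9 and Mmp25 were lower. Thus 8 of the 10 members passed the test, a Benjamini-Hochberg adjusted p under 0.05 in limma and a difference of 0.5 or more on the log2 scale, while 34.7% of all tested genes did (21.2% higher and 13.5% lower). The MI and Blood libraries did not overlap in 9 members by their listed values, and in 55.2% of all genes. The remaining members, Timp2 and Mmp19, did not pass. Higher calls made up 61.2% of all calls in this comparison, 82.3% when libraries were scaled by their total reads, 49.8% with edgeR and 36.1% with weighted limma-voom.

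The inhibitor Timp3 binds to the extracellular matrix. It was measured at 546, 561 and 677 normalized counts for MI (libraries 13, 19 and 20), 80.4, 225 and 203 for MI + MSC (15, 17 and 18), 49.5 and 45.5 for Blood (21 and 22), and 17.3 and 40.4 for Blood + MSC (23 and 24). The 3 MI libraries were thus the highest of all, the MI + MSC libraries were intermediate and the blood libraries were lowest, with no overlap between MI, MI + MSC and the blood libraries. The mean was 595 ± 71.7 (SD, n = 3) in MI against 47.5 ± 2.81 (SD, n = 2) in Blood, which is 12.5-fold higher (log2 fold change 3.59, SE 0.45, limma adjusted p = 0.000289). With MSC, the ventricle exceeded blood 5.88-fold (log2 fold change 2.45, SE 0.45, adjusted p = 0.00538).

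Timp4, the TIMP best known from the heart, showed the same order at lower levels per kilobase. MI libraries held 101, 112 and 157 normalized counts, MI + MSC libraries 14.2, 45.9 and 16.9, both Blood libraries 0, and Blood + MSC libraries 0.263 and 0.168. The last values are 1 read each, so that Timp4 was close to undetected in blood although these were the deepest libraries. Measured against 3 reads per library, Timp4 was at least 10.7-fold higher in MI than in Blood (limma adjusted p = 3.83e-05). In the MSC groups, the ratio of pooled reads between ventricle and blood was 94.9, with a 95% counting interval of 25.3 to 800, from 66 and 2 reads (limma adjusted p = 0.00257).

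Because Timp3 and Timp4 had the lowest limma p of the 10 members between MI and MI + MSC, the 300 bases before their start sites are shown (GRCm39, annotated start of the canonical transcript, 5′ to 3′ on the strand of the gene). Timp3 lies on the plus strand with the window at chr10:86135936-86136235, and Timp4 on the minus strand with the window at chr6:115229268-115229567. Capitals mark a GC box, GGGCGG or its reverse complement, which binds factors of the Sp family and was present in 37.61% of 21769 promoters of the same length.
Timp3: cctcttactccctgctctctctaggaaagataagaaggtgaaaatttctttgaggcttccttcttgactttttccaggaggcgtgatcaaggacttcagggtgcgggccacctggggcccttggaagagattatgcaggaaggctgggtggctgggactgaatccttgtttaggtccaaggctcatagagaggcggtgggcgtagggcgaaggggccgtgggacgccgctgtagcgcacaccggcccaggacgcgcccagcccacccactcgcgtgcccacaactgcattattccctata
Timp4: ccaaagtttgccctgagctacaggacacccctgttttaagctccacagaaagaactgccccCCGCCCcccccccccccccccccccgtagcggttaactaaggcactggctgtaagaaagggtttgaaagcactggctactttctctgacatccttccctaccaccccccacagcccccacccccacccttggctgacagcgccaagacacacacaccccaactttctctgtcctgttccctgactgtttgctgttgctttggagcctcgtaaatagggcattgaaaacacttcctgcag
The Timp3 window held none of the 4 motifs searched on both strands, namely the AP-1 site TGANTCA, the TATA box TATAAA, the GC box and the core GAGGAA of PU.1, a master factor of myeloid cells. Timp4 held 1 GC box, 239 to 234 bases before the start.

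The study also designed PCR primers for both inhibitors, which are shown because they mark which part of each transcript such an assay reads. From its RNA-seq, the paper lists Timp3 and Timp4 among the genes significantly downregulated with MSC in cardiac neutrophils. With the PCR assay, in cardiac Ly6G+ cells of a larger cohort, it reports no significant change of either gene with MSC. The Timp3 primers match exons 4 and 5 of 5, at chr10:86180501-86180520 and chr10:86181665-86181684, with an amplicon of 155 bases. Those for Timp4 match exons 2 and 3 of 5, at chr6:115227392-115227412 and chr6:115226831-115226852, with an amplicon of 146 bases. All 4 lie in coding sequence.
Timp3 forward primer: ggcctcaattaccgctacca
Timp3 reverse primer: atgcaggcgtagtgtttgga
Timp4 forward primer: aaggtagtccctgccagcaaa
Timp4 reverse primer: acaccacagagggaagagtcaa

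Timp1, an inducible inhibitor that pairs with pro-Mmp9, was low throughout. MI libraries held 8.40, 21.1 and 29.9 normalized counts, MI + MSC libraries 23.7, 11.5 and 24.4, Blood libraries 0 and 5.20, and Blood + MSC libraries 8.14 and 13.3. The MI libraries lay above both Blood libraries, but the lowest of them rests on 1 read and a count of 0 in Blood 21 allows up to 21.2. Timp1 passed as higher in MI than in Blood (log2 fold change 2.38 on the scale with the added 2, SE 0.70, limma adjusted p = 0.0228). The call was lost without MI 19, MI 20 or Blood 21 (limma adjusted p = 0.061, 0.0685 and 0.142), and the log2 fold change without Blood 21 was 1.45. It was also lost with TMM scaling (adjusted p = 0.0637), weighted limma-voom (0.104), and DESeq2 and limma on both groups alone (0.169 and 0.122). With MSC the difference between tissues was 0.75 (SE 0.70, adjusted p = 0.495) and the groups overlapped.

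Timp2, which inhibits MMPs and also assists the activation of pro-Mmp2 by Mmp14, was the inhibitor with the highest level per kilobase in blood. Normalized counts of 126, 444 and 466 were found for MI, of 488, 298 and 681 for MI + MSC, of 629 and 956 for Blood, and of 682 and 718 for Blood + MSC. The MI libraries were all below the Blood libraries, with the lowest value in the shallowest library, MI 13. The log2 fold change from Blood to MI was -1.38 (SE 0.55, limma adjusted p = 0.0698), so that Timp2 did not pass, although it did without MI 20 (adjusted p = 0.0464) and with DESeq2 over all libraries (0.0423). Between MI + MSC and Blood + MSC it was -0.59 (SE 0.55, adjusted p = 0.489).

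The neutrophil collagenase Mmp8 was lower in MI than in Blood. Its normalized count was 92.4, 335 and 279 for MI, 347, 232 and 106 for MI + MSC, 1519 and 4783 for Blood, and 958 and 480 for Blood + MSC. All 4 blood libraries exceeded all 6 cardiac libraries, and Blood 22 exceeded every other library by a wide margin. Mmp8 was 13.4-fold lower in MI than in Blood (log2 fold change -3.70, SE 0.67, limma adjusted p = 0.00251). In the MSC groups the same comparison gave -1.72 (SE 0.67, adjusted p = 0.11), which did not pass.

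The gelatinase Mmp9, like Mmp8 a product of neutrophil granules, was also lower in the ventricle. The MI libraries held 134, 402 and 496, the MI + MSC libraries 804, 866 and 266, the Blood libraries 1505 and 3668, and the Blood + MSC libraries 2800 and 2174. Again every blood library was above every cardiac library, and the ranges of MI and MI + MSC overlapped. Mmp9 was 7.52-fold lower in MI than in Blood (log2 fold change -2.96, SE 0.66, limma adjusted p = 0.00657). The log2 fold change of -2.11 between the MSC groups (SE 0.66) narrowly missed the threshold with an adjusted p of 0.0536, and passed under 9 of 12 alternative settings (adjusted p from 0.000104 to 0.0583).

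Mmp25, a leukocyte MMP held in the membrane by a lipid anchor, followed the same pattern at lower levels per kilobase. MI held 0, 25.0 and 18.5 normalized counts, MI + MSC 26.4, 43.6 and 5.42, Blood 56.5 and 168, and Blood + MSC 66.2 and 49.5. No cardiac library reached a blood library, but the 0 in MI 13 allows up to 25.2. Mmp25 was 7.73-fold lower in MI than in Blood (log2 fold change -3.27, SE 1.04, limma adjusted p = 0.0323), a call lost without MI 13 (log2 fold change -2.08, adjusted p = 0.0693), without Blood 22 (0.174) and in limma on both groups alone (0.0802). With MSC the value was -1.48 (SE 1.04, adjusted p = 0.358).

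The windows of 300 bases before the starts of Mmp8 (chr9:7558157-7558456, plus strand) and Mmp9 (chr2:164789839-164790138, plus strand) are given because these are the abundant members that were lower in the ventricle. Capitals mark in Mmp8 a PU.1 core and a TATA box, both as reverse complements, and in Mmp9 an AP-1 site and a GC box.
Mmp8: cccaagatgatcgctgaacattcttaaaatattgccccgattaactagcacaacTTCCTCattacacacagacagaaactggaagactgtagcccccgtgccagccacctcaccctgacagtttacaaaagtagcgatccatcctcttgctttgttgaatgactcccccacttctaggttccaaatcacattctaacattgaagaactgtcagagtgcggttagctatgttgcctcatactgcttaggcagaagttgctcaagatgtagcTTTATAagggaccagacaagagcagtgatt
Mmp9: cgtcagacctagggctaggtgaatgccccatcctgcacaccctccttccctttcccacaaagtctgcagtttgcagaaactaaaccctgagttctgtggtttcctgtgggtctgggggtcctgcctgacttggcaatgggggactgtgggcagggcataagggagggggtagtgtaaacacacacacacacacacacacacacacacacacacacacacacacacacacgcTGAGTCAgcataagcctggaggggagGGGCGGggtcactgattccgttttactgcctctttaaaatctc
The last 40 bases of the windows of Timp3, Timp4 and Mmp8 were found in the RefSeq promoter table, whereas those of Mmp9 were not, so its positions rest on the GENCODE start alone. The AP-1 site of Mmp9 lies 69 to 63 bases before the start and its GC box 43 to 38 bases before it. In Mmp8 the PU.1 core is 246 to 241 bases and the TATA letters are 30 to 25 bases before the start. Of all promoters searched, 7.377% held the AP-1 letters, 14.17% the TATA letters and 26.92% the PU.1 core. Among the 10 members, the AP-1 letters also occurred in Mmp19 (26 to 20 bases before the start), the PU.1 core in Timp2 and Mmp14, and the GC box in Timp4, Mmp2, Mmp9 and Mmp25. These matches describe the letters alone and no binding was measured.

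Mmp14, a membrane-anchored collagenase that activates pro-Mmp2, ran opposite to the neutrophil proteinases. Levels were 101, 254 and 251 normalized counts for MI, 408, 207 and 379 for MI + MSC, 42.4 and 24.7 for Blood, and 31.3 and 42.7 for Blood + MSC. Every cardiac library exceeded every blood library, and MI and MI + MSC overlapped. The ventricle was 6.02-fold above blood without MSC (log2 fold change 2.45, SE 0.46, limma adjusted p = 0.00275) and 8.95-fold with MSC (3.05, SE 0.46, adjusted p = 0.00192).

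Mmp2, a gelatinase typical of stromal cells, was near the limit of detection. The MI libraries held 16.8, 22.1 and 15.96 normalized counts, the MI + MSC libraries 8.79, 11.5 and 18.98, the Blood libraries 7.07 and 0, and the Blood + MSC libraries 0.788 and 1.01. By the listed values, the cardiac libraries were all above the blood libraries, which together held 10 reads against 102 in the heart. However, 3 reads in Blood 21 come to 21.2, which is above most of the cardiac values. Between MI and Blood, the ratio of the means was 5.18 and the limma log2 fold change was 2.24 (SE 0.72). The ratio of pooled reads was 30.3, with a 95% counting interval of 5.23 to 1219, from 56 reads and 1 read. Pooling gives the deeper Blood 22, with 0 reads, more weight and leaves out the spread between libraries. Mmp2 passed between MI and Blood (limma adjusted p = 0.0337), but lost the call without Blood 22, Blood + MSC 23 or Blood + MSC 24 (adjusted p = 0.196, 0.0513 and 0.0514), and it was high enough to be tested in 6 of the 10 fits that left out 1 library. The call was also lost with weighted limma-voom (adjusted p = 0.0701) and with DESeq2 and limma on both groups alone (0.0514 and 0.122). Mmp2 did not pass between the MSC groups (log2 fold change 2.32, SE 0.72, adjusted p = 0.0534).

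Mmp19, a proteinase of basement membrane proteins, showed no call between tissues. MI libraries held 92.4, 99.0 and 142 normalized counts, MI + MSC libraries 71.6, 45.9 and 86.1, Blood libraries 170 and 34.4, and Blood + MSC libraries 70.1 and 41.7. The Blood libraries lay on either side of the MI libraries, with the higher value in the shallow Blood 21 (24 reads), where the platelet markers were also high. The log2 fold change from Blood to MI was 0.49 (SE 0.55, limma adjusted p = 0.514). Without Blood 21 it was 1.61 and passed (adjusted p = 0.0214), and without Blood 22 it was -0.63.

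Between MI + MSC and Blood + MSC, 3 of the 10 members passed, Timp3, Timp4 and Mmp14, all higher in the ventricle, against 14.1% of all tested genes (8.23% higher). Both groups were free of overlap in 8 members, and in 63.5% of all genes. Timp3 lost the call without Blood + MSC 23 (limma adjusted p = 0.106) and with TMM scaling (log2 fold change 1.87, adjusted p = 0.0546), each of which left 2 members. The number of members called was 5 to 7 under library size scaling, edgeR, DESeq2, weighted limma-voom and fits of both groups alone, through Mmp2, Mmp9, Mmp8, Mmp25 and Timp1. Higher calls made up 58.5% of all calls, and 38.3% with TMM scaling.

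**Figure D2:**
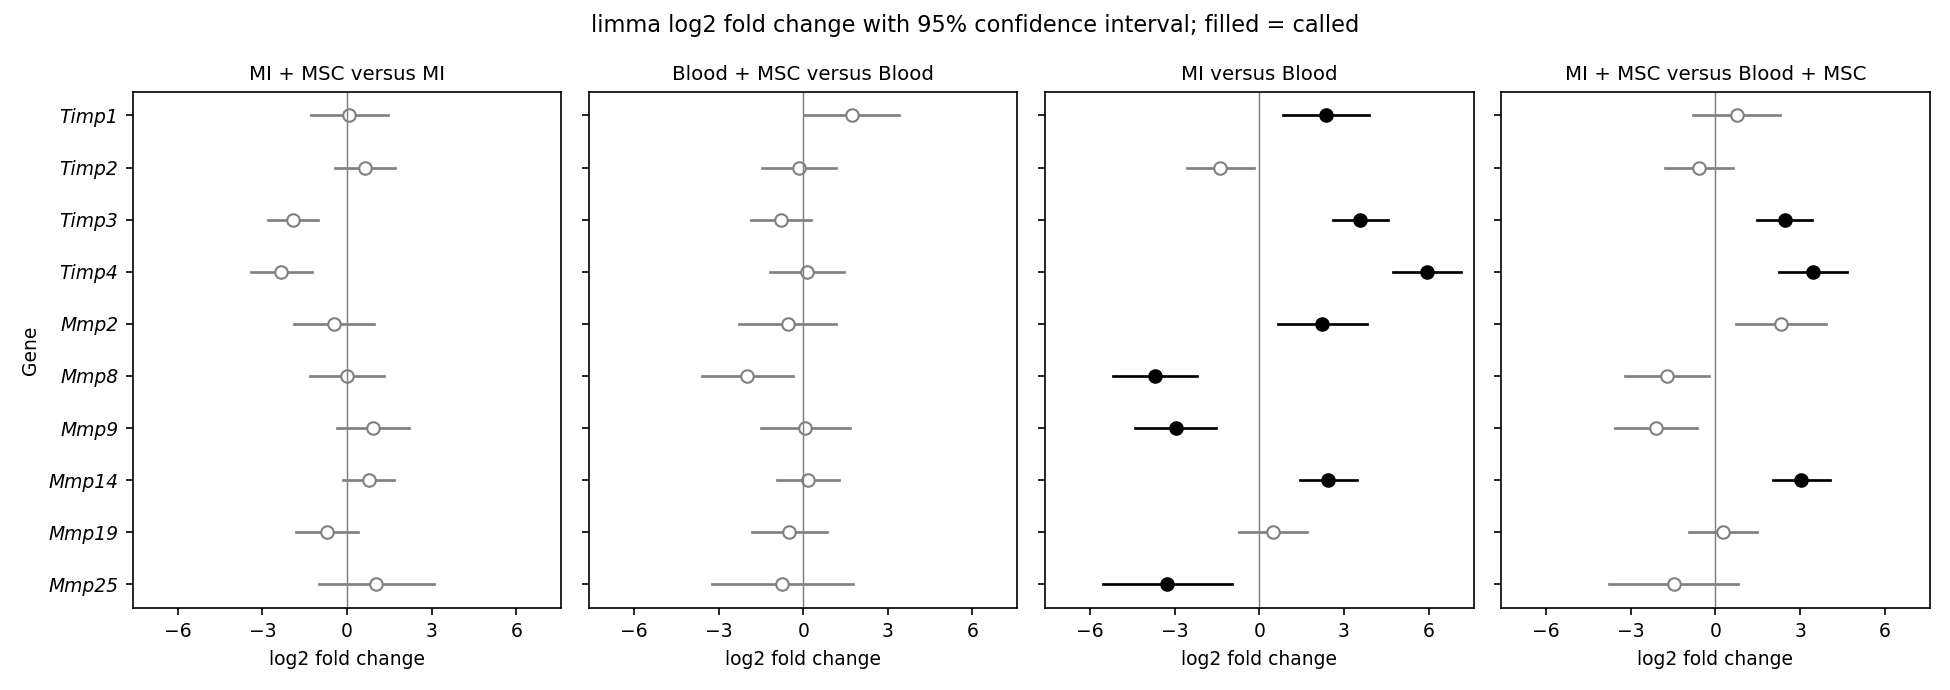
Log2 fold changes of the 10 genes (vertical axis) in 4 comparisons, from limma on log2(normalized count + 2), with 95% confidence intervals as lines. Filled points passed the test, 8 in MI versus Blood, 3 in MI + MSC versus Blood + MSC and 0 in both comparisons of MSC treatment; the fitted value of Timp4 against Blood, where it was at 0, depends on the added 2.

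The next question was whether MSC treatment changed these genes in cells from the infarcted ventricle. Timp3 and Timp4 were lower in all 3 MI + MSC libraries than in all 3 MI libraries, and Mmp19 was as well, by a smaller amount. The proteinases of neutrophils and Mmp14 overlapped between both groups. By limma, 0 of 10 members passed, as did 0 of 11549 genes (0%), with 925 genes (8.01%) at an unadjusted p under 0.05. Groups that did not overlap, with MI + MSC lower, made up 3 of 10 members and 9.6% of all genes.

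Timp3 was 3.51-fold lower in MI + MSC, at 170 ± 78.0 (SD, n = 3) against 595 ± 71.7 (SD, n = 3). The log2 fold change was -1.92 (SE 0.40, 95% interval -2.80 to -1.04), with an unadjusted limma p of 0.000509, the 14th lowest of 11549, and an adjusted p of 0.34. Timp4 was 4.80-fold lower, at 25.7 ± 17.6 against 123 ± 30.1 (SD, n = 3 each), with a log2 fold change of -2.33 (SE 0.49, 95% interval -3.40 to -1.26), an unadjusted p of 0.000537 and an adjusted p of 0.34. Both inhibitors were the members with the lowest p here, and 0.34 was the lowest adjusted p of any gene.

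The call on Timp3 and Timp4 depended on the method. DESeq2 over all libraries called both lower in MI + MSC (adjusted p = 0.00589 and 0.00235), among 58 genes called lower (0.502% of those tested). DESeq2 on the MI and MI + MSC libraries alone gave 0.0018 and 0.000737 (0.823% of genes lower), and weighted limma-voom gave 0.0191 and 0.00535 (1.92% lower). edgeR did not call them, with an adjusted p of 0.0854 for Timp3 and 0.0535 for Timp4, and called 0 genes in all. Over 12 alternative settings, 3 called each gene, with adjusted p from 0.0018 to 0.855 for Timp3 and from 0.000737 to 0.855 for Timp4. The direction held in all 12 and when any library was left out, with log2 fold changes from -2.19 to -1.46 for Timp3 and from -2.81 to -2.03 for Timp4 in the latter.

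The other members had intervals that included 0. Mmp19 was 1.64-fold lower (log2 fold change -0.71, 95% interval -1.80 to 0.37, limma adjusted p = 0.682). Mmp14 was 1.64-fold higher by its means (0.76, interval -0.13 to 1.66, adjusted p = 0.647) and Mmp9 was 1.87-fold higher (0.92, interval -0.37 to 2.21, adjusted p = 0.662), each with overlapping groups. The intervals of Timp1 (-1.28 to 1.45), Timp2 (-0.43 to 1.71), Mmp2 (-1.89 to 0.94), Mmp8 (-1.33 to 1.32) and Mmp25 (-1.004 to 3.08) leave room for changes of more than 1 log2 unit.

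Markers of several cell types moved with Timp3 and Timp4 in the ventricle. The summed level of 10 endothelial markers was 2128 to 2355 in MI, 488 to 944 in MI + MSC, 71.5 to 742 in Blood and 44.7 to 54.0 in Blood + MSC. All 9 of the 9 endothelial markers tested were lower in MI + MSC without overlap, beside 9.6% of all genes, and 0 of them passed by limma. The endothelial cadherin Cdh5, for example, lay at 478 to 513 in MI and at 120 to 233 in MI + MSC. Kdr, Tie1, Emcn, Egfl7 and Cldn5 were at 0 in Blood 21, and Cldn5 in all 4 blood libraries. A list of 10 mural cell markers summed to 1057 to 1286 in MI, 300 to 734 in MI + MSC, and 70.2 to 120 in blood, and 2 of 9 tested were lower without overlap. The cardiomyocyte sum was 7986 to 23773 in MI and 3130 to 12337 in MI + MSC, with all 10 markers lower by their log2 fold change, 0 without overlap and 0 passing. The platelet sum was higher in MI + MSC, at 836 to 1764 against 479 to 658, although 6 of its 9 markers had negative log2 fold changes.

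Set against these markers, Timp3 was 23.6% to 28.8% of the endothelial sum in MI and 16.5% to 30.2% in MI + MSC, and these ranges overlapped. Timp4 was 4.35% to 6.69% of it in MI and 1.79% to 6.17% in MI + MSC, which overlapped as well. Relative to the mural sum, Timp3 was 42.5% to 64.1% in MI and 26.8% to 43.8% in MI + MSC. Timp4 was 7.84% to 14.9% of the mural sum in MI and 2.31% to 8.93% in MI + MSC, and both genes overlapped narrowly between the groups. The part of these cell types in the difference of Timp3 and Timp4 was not tested.

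**Figure D3:**
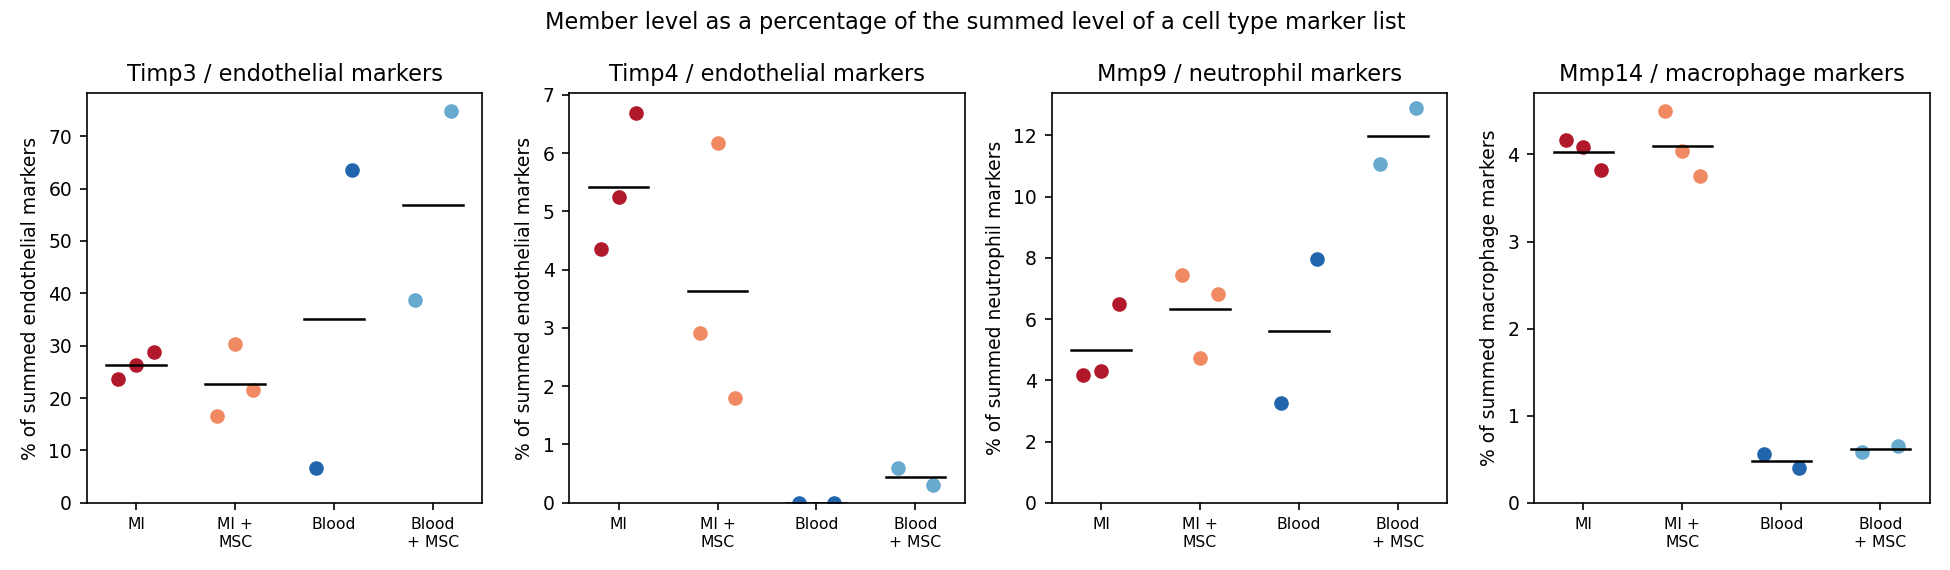
Level of 4 members as a percentage of the summed level of a list of cell type markers (vertical axes, linear, from 0), with 1 point per library in each of the 4 groups and a line at the group mean. Timp3 and Timp4 over endothelial markers overlapped between MI and MI + MSC, and Mmp14 over macrophage markers was 3.75% to 4.50% in the 6 cardiac libraries and 0.405% to 0.657% in the 4 blood libraries.

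The proteinases were set against macrophage or neutrophil markers in the same way. Mmp14 was 3.82% to 4.17% of the sum of 10 macrophage markers in MI, 3.75% to 4.50% in MI + MSC, 0.405% to 0.555% in Blood and 0.582% to 0.657% in Blood + MSC. The macrophage sum itself overlapped between tissues, at 2420 to 10092 in the heart and 5368 to 7638 in blood. The percentage of Mmp14 was higher in every cardiac library than in every blood library. Mmp14 was not set against markers of the other cell types. Mmp9 was 4.18% to 6.51% of the neutrophil sum in MI, 4.72% to 7.44% in MI + MSC, 3.25% to 7.96% in Blood and 11.1% to 12.9% in Blood + MSC. Mmp9 thus overlapped between MI, MI + MSC and Blood once set against neutrophil markers, and both Blood + MSC libraries were above all others. Mmp8 was 2.87% to 3.66% of that sum in MI, 1.27% to 3.21% in MI + MSC, 3.28% (Blood 21) and 10.4% (Blood 22) without MSC, and 2.85% to 3.79% with it, with Blood 22 alone standing apart. Between MI and Blood, 8 of 10 neutrophil markers passed as lower in MI (13.5% of all genes), and 7 of 9 endothelial, 7 of 9 mural, 5 of 9 fibroblast and 10 of 10 cardiomyocyte markers passed as higher (21.2% of all genes). The part of these cell types in the differences of the members between tissues was not tested.

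In blood, the comparison of MSC treatment asked whether circulating cells differed. Mmp8 and Timp3 had lower values in both Blood + MSC libraries than in both Blood libraries, while Mmp9 and Timp2 overlapped. For Timp3 the log2 fold change was -0.79 (SE 0.49, limma adjusted p = 0.719), and -0.16 with TMM scaling. Its value in Blood 21 rests on 7 reads. No member passed in limma, as did 0 of 11549 genes (0%), with 848 genes (7.34%) at an unadjusted p under 0.05. By the listed values 4 members did not overlap between groups, against 36.4% of all genes. Of these, Timp4 rests on 0 reads in each Blood library and 1 read in each Blood + MSC library, and Timp1 on 0 reads in Blood 21, which allow up to 21.2 and thus more than the 8.14 and 13.3 of Blood + MSC, so that neither gives a direction.

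Mmp8 was 4.38-fold lower in Blood + MSC, at 719 ± 338 (SD, n = 2) against 3151 ± 2308 (SD, n = 2). The log2 fold change was -1.99 (SE 0.74, 95% interval -3.61 to -0.37, limma adjusted p = 0.672). DESeq2 over all libraries called it (adjusted p = 0.0486), among 175 genes called lower (1.52% of those tested), and the other 11 of 12 alternative settings did not (adjusted p up to 1). Leaving out Blood 21 or Blood 22 gave -2.81 and -1.16, and the single Blood library left is then assumed to vary like the other groups. Timp1, with 8 reads in Blood, did not pass (limma adjusted p = 0.672).

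A list of 10 granule markers summed to 1675 and 8437 in Blood 21 and 22 and to 2305 and 1333 in Blood + MSC 23 and 24. The groups thus overlapped, and Blood 22 alone stood apart. Of the 8 granule markers tested, 6 had negative log2 fold changes, with a range from -1.80 to 1.18, and 0 passed by limma. The neutrophil sum was lower in both Blood + MSC libraries, and the platelet markers were high in Blood 21. The part of these in the difference of Mmp8 was not tested. Mmp9 differed by 0.07 (95% interval -1.51 to 1.65) and Mmp25 by -0.75 (interval -3.25 to 1.75) on the log2 scale, and Mmp19 by -0.49, which without Blood 22 was -1.61 and passed (limma adjusted p = 0.0465).

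Whether the effect of MSC differed between heart and blood was tested as an interaction. Of the 10 members 0 passed, as did 0 of all genes in limma, with 838 (7.26%) at an unadjusted p under 0.05. Timp4 had the lowest p of the members, with a difference of -2.48 (SE 0.77, unadjusted p = 0.00811, adjusted p = 0.63). For Mmp8 it was 1.98 (SE 0.95, adjusted p = 0.63) and for Timp3 -1.14 (SE 0.63, adjusted p = 0.631).

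The level per kilobase of exon allows the members to be ordered within a group. The length used merges the exons of all annotated transcripts, at 8146 bases for Timp3, 7743 for Timp4 and 2426 for Mmp8. A gene read from a shorter transcript is placed too low, so the order between genes and the shares given below depend on this length. In Blood, Mmp8 (1299 per kilobase) and Mmp9 (699) led with overlapping ranges and were followed by Timp2 (178), all others having means of at most 28.8. In Blood + MSC the order was Mmp9 (672), Mmp8 (296) and Timp2 (157), with no overlap between these neighbours. In MI, the ranges of Mmp8 (97.2), Mmp9 (92.9), Timp2 (77.4) and Timp3 (73.0) overlapped from each to the next, and Timp3 lay above Mmp14 (32.7) without overlap. In MI + MSC, Mmp9 (174), Timp2 (110), Mmp8 (94.2) and Mmp14 (53.7) overlapped in the same manner, Timp3 (20.8) came below Mmp14 without overlap, and Timp4 (3.32) was last.

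As a result, the make-up of the TIMP transcripts differed between groups. Timp2 made up 95.9% to 96.3% of the summed TIMP level per kilobase in Blood and 93.2% to 96.0% in Blood + MSC, but 25.1% to 51.4% in MI and 62.9% to 82.1% in MI + MSC. Timp3 made up 35.6% to 59.5% in MI and 7.42% to 26.0% in MI + MSC, without overlap, and at most 4.13% in blood. The summed TIMP level per kilobase was 113 to 223 in MI, 106 to 192 in MI + MSC, 147 to 222 in Blood and 159 to 173 in Blood + MSC, so that all groups overlapped in the total.

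Among the MMP transcripts, Mmp8 and Mmp9 had the largest shares in every library except MI + MSC 18, where Mmp14 exceeded Mmp8. Mmp8 took 56.9% to 65.6% of the MMP level per kilobase in Blood and 24.3% to 33.2% in Blood + MSC, where Mmp9 took 63.6% to 72.2%. Mmp14 took 12.03% to 13.4% in MI, 8.65% to 29.6% in MI + MSC and at most 0.852% in blood. The summed level per kilobase of the MMP members was 122 to 338 in MI and 208 to 454 in MI + MSC. It was higher in every blood library, at 1100 to 3008 in Blood and 813 to 1189 in Blood + MSC.

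**Figure D4:**
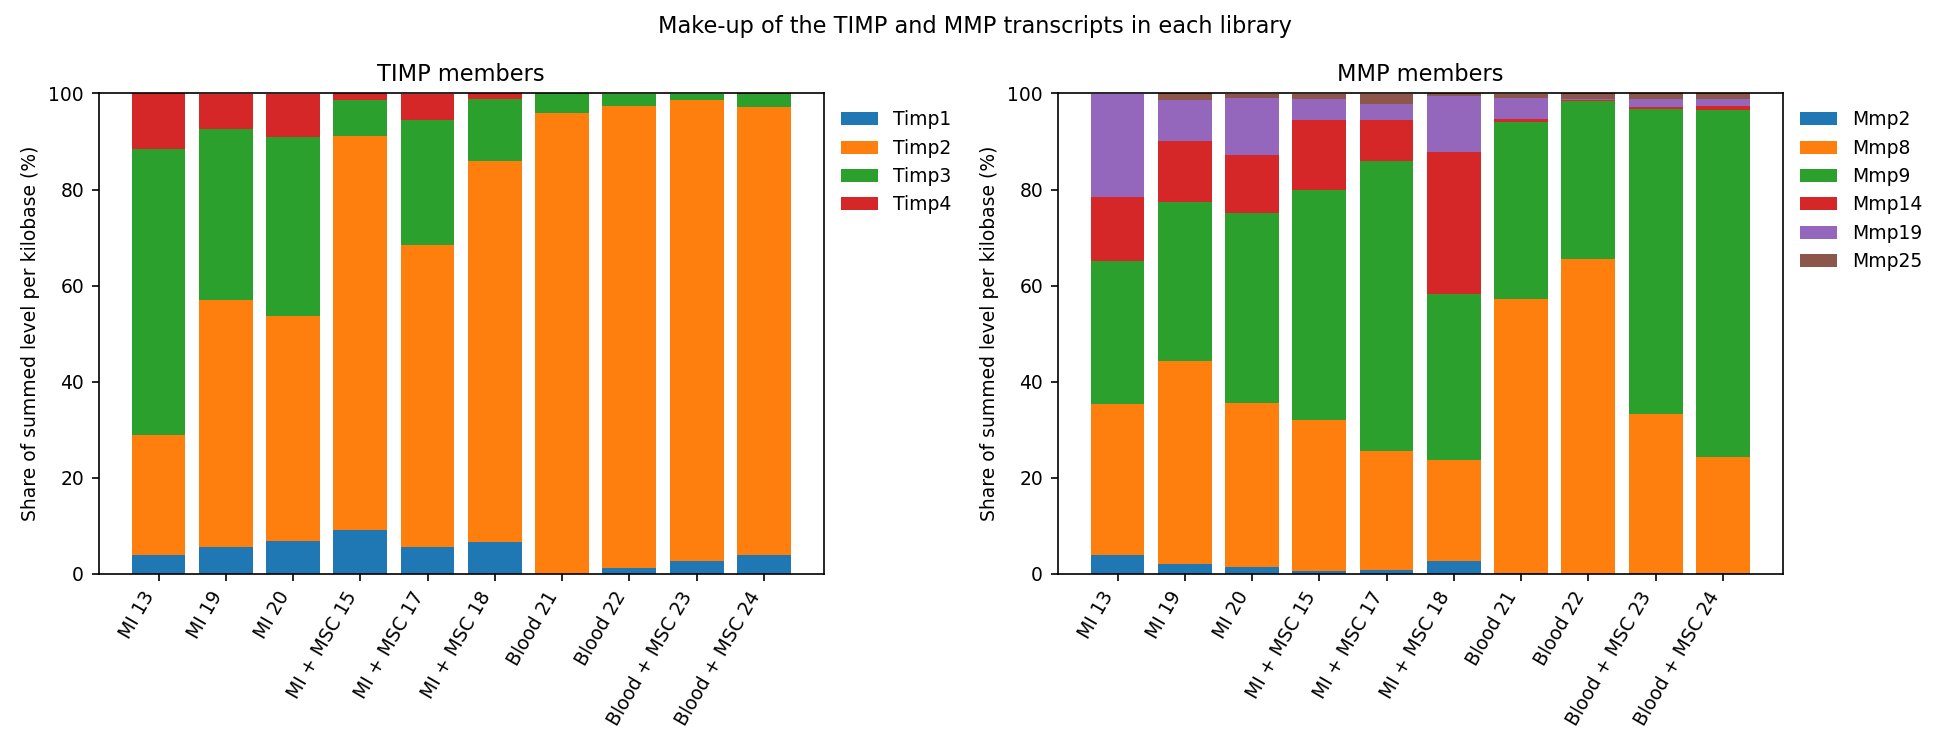
Share of each member in the summed normalized count per kilobase of exon (vertical axis, percent) of the 4 TIMP genes (left) and the 6 MMP genes (right), with 1 stacked bar per library. Timp2 fills 93.2% to 96.3% of the TIMP bars in blood, and Timp3 is 35.6% to 59.5% in MI against 7.42% to 26.0% in MI + MSC.

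The genes whose profiles over the 10 libraries lay nearest to each member were found by the root mean square difference of centred log2 profiles, given here as a description. For Timp3 they were Tcim, Mgll, Ramp2, Hey1 and Wwtr1 (0.33 to 0.46 log2 units), and for Timp4 they were Sox18, Myh7, Depp1, Gpihbp1 and Prex2 (0.46 to 0.49). Sox18, Hey1 and Gpihbp1 are known from endothelium, and Myh7 encodes a myosin heavy chain of cardiomyocytes. Mmp8 was nearest to Pglyrp1, Ifnlr1, Ceacam10, Jaml and Fpr1 (0.42 to 0.54), of which Pglyrp1 encodes a granule protein and Fpr1 a receptor for formyl peptides on neutrophils. Mmp9 was nearest to Fxyd5, Sorl1, Csf3r, Lpcat2 and Ptprc (0.22 to 0.25), and Mmp25 to Chi3l1, Cep19, Hcst, Phospho1 and Ltb (0.36 to 0.53). Csf3r is the receptor for granulocyte colony-stimulating factor.

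For Mmp14 the nearest genes were Hmox1, Cxcl16, Mdfic, Sdc4 and Bhlhe41 (0.21 to 0.33), and for Mmp2 they were Htra3, Fbn1, Sod3, Zfp704 and Slc16a1 (0.28 to 0.33). Hmox1 encodes the heme-degrading enzyme heme oxygenase, and Fbn1 encodes fibrillin of the matrix. Timp1 lay nearest to Kti12, Rbbp9, Pycr3, Rangap1 and Alkbh7 (0.23 to 0.33), Timp2 to Dram2, Rab29, Necap2, Slc66a3 and Cybb (0.20 to 0.24), and Mmp19 to Smim13, Ptpn11, 2510002D24Rik, Itgb1 and Zfp664 (0.27 to 0.36).

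Other metalloproteinases and regulators of their activity were taken from fixed lists. Of 17 other MMPs, 14 were in the table and 4 were tested. Mmp15, a membrane-type MMP, was the single one to pass between MI and Blood, beside 21.2% of all genes called higher. It had 89.0 to 118 normalized counts in MI and 0 in both Blood libraries (limma adjusted p = 3.83e-05). In MI + MSC it lay at 13.8 to 42.0, below all MI libraries, without passing (log2 fold change -2.04, SE 0.47, adjusted p = 0.343). Between MI + MSC and Blood + MSC all 4 passed as higher in the ventricle, beside 8.23% of all genes called higher. These were the macrophage elastase Mmp12 (log2 fold change 3.40, limma adjusted p = 0.00684), the collagenase Mmp13 (2.72, 0.0156), Mmp15 (3.24, 0.00277) and Mmp27 (1.97, 0.0288).

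Of 16 tested ADAM and ADAMTS proteinases, which shed surface proteins or cut proteoglycans, 8 were higher in MI than in Blood and 1 was lower, beside 21.2% and 13.5% of all genes. Adamts1, Adamts2, Adamts5, Adamts7, Adamts9, Adamts12, Adam12 and Adam28 were higher, with Adamts9 at 65.4 to 143 against 14.1 to 14.3 normalized counts (log2 fold change 2.79), and Adam19 was lower (-2.22). With MSC, 5 were higher (Adam12, Adam28, Adamts1, Adamts5 and Adamts12) and 2 lower (Adam19 and Adamts10), beside 8.23% and 5.85% of all genes. The median log2 fold change of the list was 1.94 without and 1.01 with MSC, beside 0.15 and 0.09 over all tested genes.

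Among 12 tested regulators of MMP activity, genes moved both ways. Of all genes, 21.2% were called higher and 13.5% lower in MI than in Blood. Plau, the urokinase that starts plasmin formation, was higher in MI than in Blood (log2 fold change 2.20), as were the clearance receptor Lrp1 (2.43) and Thbs2 (3.48), whereas the urokinase receptor Plaur (-1.31), Cd44 (-1.95) and Lcn2, a granule protein that binds Mmp9 (-3.47), were lower. With MSC, Plau (2.96) and Thbs2 (2.83) were higher and Lcn2 was lower (-2.80), beside 8.23% and 5.85% of all genes. In both comparisons of MSC treatment 0 genes of the 3 lists passed in limma.

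Several members overlap other genes. Timp1 (chrX:20736316-20740976), Timp3 (chr10:86136236-86185371) and Timp4 (chr6:115187773-115229336) each lie inside a synapsin gene on the opposite strand, Syn1, Syn3 and Syn2, and share 0, 1734 and 1142 exon bases with it. The synapsin genes held 144, 71 and 39 reads in all libraries together, against 275, 2865 and 502 for the inhibitors, and the methods state that reads were counted by strand. Timp2 (chr11:118191887-118246566) shares 332 exon bases with Cep295nl on its own strand, which held 150 reads against 11662. Among the proteinases, Mmp19 (chr10:128626773-128636695) shares 1084 exon bases with Tmem198b and Mmp2 (chr8:93553902-93580049) shares 860 with Gm45472, each on the opposite strand, and the latter held 269 reads, more than the 112 of Mmp2.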

How the data were processed

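RNA of Ly6G+ cells was sequenced after depletion of ribosomal RNA. Per the methods, the authors trimmed reads with Trimmomatic, removed duplicates with Picard, mapped reads with STAR to GRCm39, quantified strands separately with featureCounts, filtered out mitochondrial reads and scaled with DESeq2. The deposited signal values are gene counts divided by the size factor of each library. A second table with a name for raw counts was equal in all 281850 values and served only for that check. Columns not mapped to a sample numbered 0. In each library 100% of values were whole multiples of 1 read within 0.01, which gave the recovered reads. Library totals differed 57.9-fold. Floors of 3 reads and the intervals of pooled reads cover counting error only, whereas the limma intervals rest on the spread between libraries.

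Genes with a mean of at least 10 were tested with limma (3.58.1) on log2(normalized count + 2) with an intensity trend and 1 mean per group over all 10 libraries, which understates changes of low genes. The threshold was a Benjamini-Hochberg adjusted p of 0.05 and an absolute log2 fold change of 0.5 (for the interaction, the adjusted p alone). On recovered reads, edgeR (4.0.16), DESeq2 (1.42.0) and limma-voom were alternatives. All tools were tested on simulated data. The 10 members were named in every comparison, listed related genes when called (1 of these is not reported here), and the 5 nearest genes by profile. The members and lists were chosen with earlier results of these data known. Exon lengths, coordinates and promoters are from GENCODE vM39 on GRCm39, which held 27906 of 28185 identifiers. For 7 members the last 40 bases of the window were found in the RefSeq promoter table (GRCm38.p6). Statistics were run in R 4.3.3, and tables and plots were made with matplotlib 3.10.9, pandas 2.3.3, numpy 2.4.6 and scipy 1.17.1 in Python 3.11.15.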

Additional observations from a re-analysis of the deposited data

How the results depend on the processing

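Alternatives changed the scaling, the pseudocount (1 or 5), the filter, the tool, the libraries fitted and each library in turn. Leaving out MI 13 and Blood 21 together was added after seeing the data. Apart from single libraries left out, 495 values of members kept their direction and their side of the threshold, 31 gained a call, 9 lost it and 30 changed sign. In MI + MSC versus MI, DESeq2 over all libraries, weighted limma-voom and DESeq2 on those groups alone called 79, 261 and 148 genes and 2 members each, against 0. In blood, the numbers for MSC were 179 genes and 1 member with DESeq2 over all libraries, 39 genes with DESeq2 on those groups alone and 1 without both shallow libraries, against 0. For MI versus Blood, 4008 genes became 2488 (TMM), 2590 (voom), 2391 (DESeq2, groups alone) and 1700 (limma, groups alone, 5 members against 8, as Timp1, Mmp2 and Mmp25 were lost). Timp1 was also lost with TMM, voom and DESeq2 on those groups alone, and Mmp2 with the latter pair. For MI + MSC versus Blood + MSC, 1627 genes became 3693 (edgeR), 3353 (DESeq2), 4884 (voom), 4532 and 4010 (DESeq2 and limma, groups alone) and 4593 (without both shallow libraries), and 3 members became 5 (library size scaling, also without both shallow libraries), 6 (edgeR, DESeq2, both fits of groups alone) or 7 (voom), and 2 with TMM, where Timp3 was lost. DESeq2 called 20 genes for the interaction. The cause of these differences was not tested. Leaving out single libraries gave 0 to 0 genes for MSC in the heart, 0 to 1504 in blood (the highest without Blood 22), 3209 to 4023 for MI versus Blood, 272 to 2716 for the MSC groups (the lowest without Blood + MSC 23) and 0 to 1086 for the interaction, with 0 to 0, 0 to 1, 6 to 8, 2 to 5 and 0 to 0 members.

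Directions turned only for values that did not pass. In MI + MSC versus MI these were Timp1 (-0.029 library size scaling, -0.17 edgeR, -0.16 and -0.11 DESeq2, -0.20 voom, -0.38 without both shallow libraries), Mmp8 (0.27 TMM) and Mmp25 (-0.26 voom, -0.15 without both). In blood these were Timp2 (0.15 library size, 0.52 TMM, 0.054 voom), Timp4 (-0.98 and -1.18 DESeq2, -2.21 voom), Mmp2 (0.39 edgeR), Mmp9 (-0.016 edgeR, -0.089 and -0.069 DESeq2, -0.57 without both) and Mmp19 (0.16 TMM, 0.62 without both). Between the MSC groups Mmp19 turned (-0.33 TMM), and in the interaction Mmp2 (-0.15 library size, -0.027 TMM, -0.88 edgeR, -0.38 DESeq2), Mmp14 (-0.051 voom, -0.20 without both) and Mmp19 (0.051 DESeq2). With single libraries left out, the range included the other sign for Timp1 (-0.38 to 0.43), Mmp8 (-0.57 to 0.46) and Mmp25 (-0.15 to 1.80) in the heart, for Timp2 (-0.45 to 0.15), Mmp2 (-1.65 to 0.53), Mmp9 (-0.57 to 0.71), Mmp14 (-0.20 to 0.53), Mmp19 (-1.61 to 0.62) and Mmp25 (-1.52 to 0.018) in blood, for Mmp19 between tissues (-0.63 to 1.61, with MSC -0.091 to 0.63), and for Mmp2 (-1.01 to 1.17) and Mmp19 (-1.34 to 0.90) in the interaction. Scaling moved the median of all genes, by -0.21 and 0.49 in MI versus Blood and by 0.61 and 0.26 in blood (TMM and library size). No paired analysis was possible because no library number is shared between groups. Depth limits Timp1, Timp4, Mmp2 and Mmp25 most, with values of 0 or 1 read in the shallow libraries.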

Other observations

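Of the 10 other MMPs in the table that were too low to be tested, Mmp3 (stromelysin) averaged 14.4 ± 9.46 normalized counts for MI and 11.8 ± 1.82 for MI + MSC (SD, n = 3 each), against 0.65 ± 0.92 in Blood and 1.25 ± 0.10 in Blood + MSC (SD, n = 2 each). Mmp17, a membrane-anchored MMP, had 7.72 ± 2.31 in MI and 1.89 ± 1.08 in MI + MSC, and was listed at 0 in both Blood libraries. Mmp11 had 8.56 ± 1.95 in MI and 2.48 ± 2.38 in MI + MSC, and was at 0 in both Blood libraries as well. These genes were picked after their values were seen and were not tested.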
